A study of Mus musculus with 8 samples.

Results

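Chromatin accessibility was examined at 8 genes that mark bile duct cells and liver progenitors: Sox9, Sox4, Krt7, Krt19, Epcam, Spp1, Cd24a and Prom1. They are 8 of 21938 protein-coding genes in the GENCODE annotation of mm10, were chosen by name, and were followed through every deposited peak list. For each gene, accessible intervals overlapping the gene body or the 20 kb on either side were taken, and those within 1 kb of a transcription start site (TSS) were kept apart as promoter intervals. The remaining intervals were called distal.

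Open chromatin had been tagged with the Tn5 transposase (bulk ATAC-Seq) in nuclei of hepatocytes isolated by collagenase perfusion from C57BL/6 mice on a normal diet, aged 10 to 12 weeks per the labels and male per the study's methods. The control group was undamaged liver (0 h), and the other groups were livers at 48, 72 and 96 h after partial hepatectomy (PHx), an operation that takes out liver tissue and leaves the remainder to regrow. Each of the 4 time points had 2 libraries, and neither labels nor methods name a mutant allele or an agent for these animals, so surgery and time are the labelled differences between groups. The study asked how hepatocytes change state while the liver regrows. For 0 and 48 h the study's results describe biological replicates from separate hepatocyte preparations, and more of them than the 2 libraries per time point analysed here. Its methods list several mice for primary hepatocytes at each of the 4 time points. Labels tie no library to a preparation, so the p-values measure the spread between libraries, which may be technical. The list of 72 h replicate 2 carries another lane tag in its name than those of the other 7 libraries. The part of this in the 72 h values was not tested.

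Bile ducts are lined by cholangiocytes, which share an embryonic progenitor, the hepatoblast, with hepatocytes. SOX9 and SOX4 are transcription factors that act together in bile duct formation, whereas keratins 7 and 19 build the intermediate filaments of the duct epithelium. EpCAM, CD24 and prominin-1 (CD133) are surface proteins used to sort duct and progenitor cells, and Spp1 encodes osteopontin, a secreted phosphoprotein. In adult liver these genes are known mainly from ducts, and several of them are switched on in hepatocytes that take on duct features during injury.

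The peak lists held 105206 to 154577 distinct intervals per library. They contain no read counts, so the depth behind a value is unknown. Every interval was therefore given a rank within its own list by the peak caller's −log10 p, rank 1 being the strongest, and "higher" below means closer to rank 1. The fold enrichment given with some ranks is the height of the interval over local background. As a check on the cell type, all 12 hepatocyte genes (Alb, Hnf4a, Cps1 and others) had a promoter interval in both 0 h lists. The 48 h lists held 8 and 10 of them and the later lists 11 or 12, and Alb was absent from 5 of the 6 lists after PHx. Of 8 Kupffer cell genes, 6 (Cd5l, Csf1r, Marco, Ptprc, Vsig4 and Lyz2) had none in any list, and 0 or 1 of the 8 was listed per library. Endothelial genes were listed for 2 to 6 of 8 per library, with Lyve1 and Stab2 absent from all lists and Kdr in all 8. Stellate cell genes were listed for 4 to 7 of 8, with Acta2 absent from all lists and 4 (Lhx2, Col1a1, Lrat and Reln) in all 8. The median rank of these 4 promoters was 18588, stronger than the 33138 of the 8 hepatocyte promoters in all lists. In bulk nuclei, fewer cells of a type and less signal per cell cannot be told apart, and this holds for every value that follows.

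The sequences behind the findings come first. Distal regions are shown as the 200 bases around the strongest summit, on the plus strand of GRCm38.p6 (the mm10 build). None of them overlaps an annotated exon, and the Krt7 window lies in introns of the antisense transcripts Gm35853 and Gm671. They were chosen because they include the best-ranked distal region of Sox4, Spp1 and Epcam, the one Krt7 region present in every list, and the regions of Sox4, Prom1 and Cd24a with the largest rank differences after PHx. Capitals mark matches, on either strand, to the letters TGANTCA (AP-1), TGTTTAC (FOXA), TTNNGCAA (C/EBP), CAAAGTCCA (HNF4), TTAATNATT (HNF1), ATTGAT (ONECUT), ACAATGG (SOX), GTGGGAA (RBPJ), TGGAATG (TEAD) and AGNGGGC (part of the CTCF motif). The last of these was chosen after the windows had been read.
Sox4, 6014 bp upstream of the gene start, chr13:28959627-28959826: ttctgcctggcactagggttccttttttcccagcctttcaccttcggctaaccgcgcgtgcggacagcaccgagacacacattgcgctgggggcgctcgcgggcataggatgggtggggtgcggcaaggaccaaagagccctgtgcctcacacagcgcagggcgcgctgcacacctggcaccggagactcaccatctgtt
Prom1, intronic, 51555 bp into the gene, chr5:44050377-44050576: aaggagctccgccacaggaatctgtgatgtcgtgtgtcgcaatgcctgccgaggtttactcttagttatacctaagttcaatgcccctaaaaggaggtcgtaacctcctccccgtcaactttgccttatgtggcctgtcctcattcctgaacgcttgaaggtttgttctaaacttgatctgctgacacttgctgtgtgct
Cd24a, 3102 bp upstream, chr10:43575082-43575281: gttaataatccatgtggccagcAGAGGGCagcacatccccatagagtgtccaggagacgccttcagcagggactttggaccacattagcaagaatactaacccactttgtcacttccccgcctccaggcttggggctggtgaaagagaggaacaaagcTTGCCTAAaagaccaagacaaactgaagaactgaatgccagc
Spp1, 11285 bp from the gene start and past the gene's end, chr5:104446303-104446502: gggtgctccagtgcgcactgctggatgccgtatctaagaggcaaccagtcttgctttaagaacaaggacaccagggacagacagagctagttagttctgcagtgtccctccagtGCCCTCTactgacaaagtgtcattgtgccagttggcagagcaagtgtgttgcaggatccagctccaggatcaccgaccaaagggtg
Epcam, 29656 bp from the gene start and past the gene's end, chr17:87665535-87665734: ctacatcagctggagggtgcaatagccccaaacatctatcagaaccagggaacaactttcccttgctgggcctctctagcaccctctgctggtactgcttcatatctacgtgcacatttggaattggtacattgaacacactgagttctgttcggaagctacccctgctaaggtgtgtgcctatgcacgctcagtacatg
Krt7, 13188 bp upstream, chr15:101397755-101397954: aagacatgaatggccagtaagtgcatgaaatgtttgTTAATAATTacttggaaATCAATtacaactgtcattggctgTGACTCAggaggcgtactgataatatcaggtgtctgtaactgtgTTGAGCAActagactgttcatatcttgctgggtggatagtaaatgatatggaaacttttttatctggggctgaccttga

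The Krt7 window held an HNF1, an ONECUT, an AP-1 and a C/EBP match. Among the 33584 distal regions present in all 8 lists, read over 300 bases around the summit, these motifs were found in 3.38%, 13.5%, 11.4% and 19.0% of windows. The Cd24a window had a C/EBP and a CTCF match and the Spp1 window a CTCF match, the latter motif being found in 25.6% of distal windows. The Sox4, Prom1 and Epcam windows contained none of the 10 motifs, which says only that these letters are not in these 200 bases. The Sox4 region was rich in GC: its 300-base window had 65.0% G or C and 20 CpG dinucleotides, against a median of 49.0% G or C over distal regions.

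Promoters differed in the same feature. RefSeq promoter sequences, spanning 250 bases before to 50 after a start, were available for 5 of the 8 genes (7 entries, GRCm38.p6). The 250 bases before the start are shown for 3 of them, as 1 gene with a promoter interval in every list and 2 with weak or missing intervals, on the transcribed strand and with CpG dinucleotides in capitals.
Sox4, chr13:28953700-28953949, minus strand: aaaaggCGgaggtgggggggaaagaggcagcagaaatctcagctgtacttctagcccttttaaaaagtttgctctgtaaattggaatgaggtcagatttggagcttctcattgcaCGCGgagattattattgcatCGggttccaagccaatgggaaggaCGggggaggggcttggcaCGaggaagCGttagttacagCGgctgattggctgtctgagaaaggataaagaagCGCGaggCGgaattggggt
Krt7, chr15:101412153-101412402, plus strand: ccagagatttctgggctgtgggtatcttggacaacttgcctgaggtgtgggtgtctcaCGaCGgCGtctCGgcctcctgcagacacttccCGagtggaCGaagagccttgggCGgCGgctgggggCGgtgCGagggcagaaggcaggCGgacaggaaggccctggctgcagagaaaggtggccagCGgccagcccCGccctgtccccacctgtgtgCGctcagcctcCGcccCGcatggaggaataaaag
Spp1, chr5:104434861-104435110, plus strand: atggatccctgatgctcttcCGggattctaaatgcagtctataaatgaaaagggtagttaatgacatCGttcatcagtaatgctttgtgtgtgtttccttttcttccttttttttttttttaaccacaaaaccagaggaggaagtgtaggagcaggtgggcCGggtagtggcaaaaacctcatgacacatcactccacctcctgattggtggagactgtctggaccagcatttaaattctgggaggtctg

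Over the full 300 bases the Sox4 promoter held 12 CpGs, the Krt7 promoter 21, and each of the 2 Spp1 entries 3. The Epcam entry held 11 and the Prom1 entries 4 and 10. Among 16522 protein-coding genes with a RefSeq promoter, the median was 22 CpGs for those with an interval in all 8 lists, 7 for those in 1 to 7 lists and 2 for those in no list. Sox4, Epcam and Prom1, each with an interval in all 8 lists, lay below the lower quartile (15) of that class. The Epcam entry is at the first annotated start and does not overlap the listed interval, which is at the second. The Spp1 entry shown likewise overlaps none of the gene's promoter regions, whereas the other Spp1 entry overlaps the region listed in 7 libraries. Neither Prom1 entry overlaps the strongest promoter interval of any library. Spp1, with 3 CpGs and an interval in 7 lists, lay at the lower quartile (3) of the 1 to 7 list class. Krt7, with 21, lay above that class's upper quartile of 16, and its interval was in 5 lists.

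Promoter accessibility split the 8 genes. Sox9, Sox4, Epcam, Cd24a and Prom1 had a promoter interval in every list (5 of 8, against 60.3% of all protein-coding genes). Spp1 was in 7 lists and Krt7 in 5, and Krt19 was in none (1 of 8, against 25.1% of all genes), so neither share stood far from its background. Where an interval was found in all 8 lists it was mostly a weak one. The median rank over the 8 libraries was 4154 for Epcam, 28706 for Sox4, 30540 for Prom1, 39856 for Sox9 and 63716 for Cd24a, whereas the median of the 13220 promoters present in all lists was 11955. Of those promoters, 22.2% ranked better than Epcam, 79.9% better than Sox4, 81.7% better than Prom1, 88.7% better than Sox9 and 97.7% better than Cd24a. Epcam ranked above Sox4 in all 8 libraries. Further down this order, the neighbours Sox4 and Prom1 overlapped in their ranks over libraries, as did Prom1 and Sox9, and Sox9 and Cd24a.

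**Figure D1:**
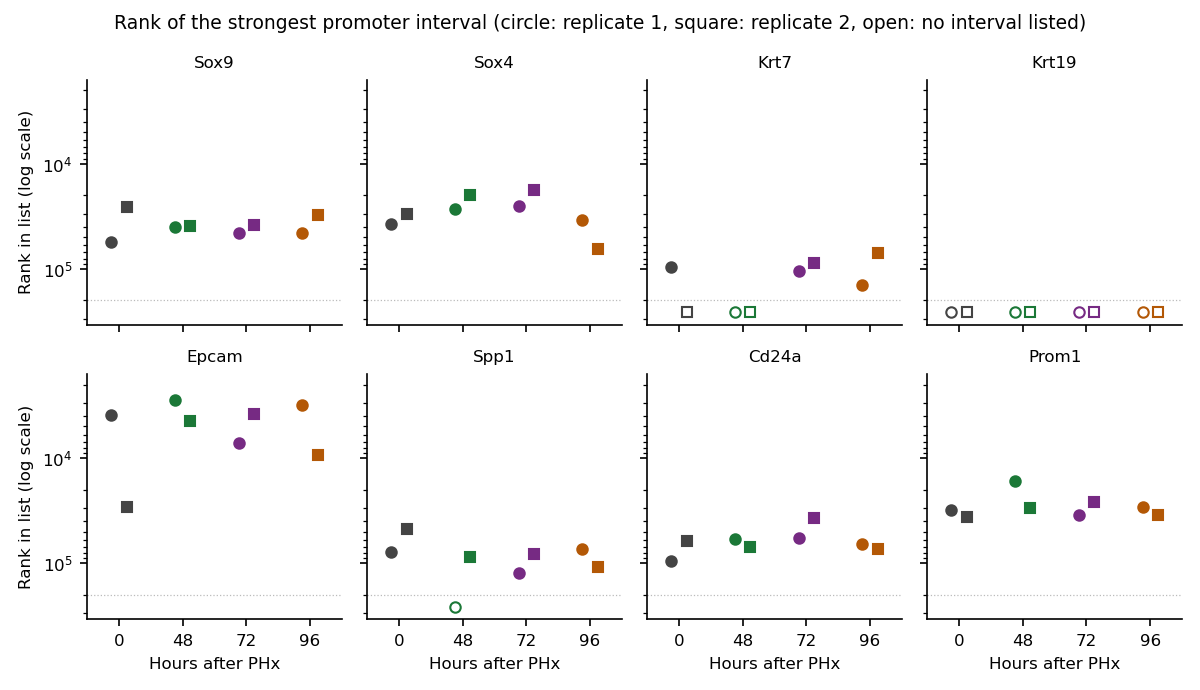
Rank of the strongest promoter interval of each of the 8 genes (vertical axis, log scale, strongest at the top) against hours after PHx, 1 point per library (circles, replicate 1; squares, replicate 2). Open symbols under the dotted line stand for lists with no promoter interval. Epcam lies highest in 7 of 8 libraries, between rank 2827 and 9268, and is at 29083 in 0 h replicate 2, while Krt19 is open in all 8.

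Taking the transcription factors first, the Sox9 promoter (chromosome 11, gene 112782224 to 112787760, plus strand) ranked 55870 and 25723 in the 0 h pair of libraries (replicate 1 given before replicate 2, as throughout). It ranked 40161 and 39550 in the 48 h pair, 45827 and 38644 in the 72 h pair, and 45933 and 30483 in the 96 h pair. All 6 libraries after PHx thus fell inside the interval spanned by the 2 control libraries. The strongest summit lay at positions from 978 bp upstream to 727 bp downstream of the TSS depending on the library, within 1 merged region of 2142 bp, so the ranks compare different summits of a broad accessible domain.

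The Sox4 promoter (chromosome 13, gene 28948919 to 28953713, minus strand) ranked 37117 and 30190 in the 0 h pair. It reached 27223 and 19698 in the 48 h pair and 25316 and 17713 in the 72 h pair, but was at 34228 and 64866 in the 96 h pair. Both 48 h and both 72 h libraries ranked higher than both controls, and the 96 h libraries fell around or below them. The summit always lay 303 to 750 bp into the gene, and in both 72 h libraries the interval reached across the TSS.

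Of the keratins, Krt7 (chromosome 15, gene 101411043 to 101430313, plus strand) had a weak interval at its TSS, with summits from 44 bp upstream to 85 bp downstream. It ranked 96603 in 0 h replicate 1 and was not listed in replicate 2. Neither 48 h library listed it, whereas it ranked 105521 and 87188 in the 72 h pair and 142852 and 71276 in the 96 h pair. Its fold enrichment was 2.23 to 4.09, and no library placed it among its 50000 strongest intervals. Krt19 (chromosome 11, gene 100140810 to 100148665, minus strand) had no promoter interval in any of the 8 lists, whose weakest intervals had a −log10 p of 2.00017 to 2.00077. A signal under that threshold could not be seen here.

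Among the surface and secreted proteins, Epcam (chromosome 17, gene 87635979 to 87651129, plus strand) had the sharpest promoter, its summit lying 42 to 58 bp downstream of the second annotated TSS in all 8 libraries. The interval ranked 3903 and 29083 in the 0 h pair, 2827 and 4406 in the 48 h pair, 7215 and 3781 in the 72 h pair, and 3112 and 9268 in the 96 h pair. The control libraries differed 7.45-fold in rank, more than any other pair of replicates of this promoter (1.56 to 2.98-fold), and their fold enrichments were 17.8 and 9.60. The libraries after PHx lay between 12.4 and 17.5. The 300 bases around the summit were 80.0% G or C and held 53 CpGs.

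Spp1 (chromosome 5, gene 104435118 to 104441050, plus strand) showed a broader, weaker pattern. Its strongest promoter interval ranked 77449 and 47773 in the 0 h pair. In the 48 h pair it was unlisted in replicate 1 and ranked 86611 in replicate 2. It was at 124154 and 81879 in the 72 h pair and at 72977 and 108096 in the 96 h pair. With an absent interval counted as below any listed one, both 48 h and both 72 h libraries lay below both controls, and the 96 h libraries overlapped them. As percentiles of each list, whose lengths differ, the 72 h values (11.5 and 47.0) overlapped those of 0 h (38.9 and 54.6). Spp1 has 3 annotated TSSs, and 4 separate regions fell in its promoter windows. The region listed in 7 libraries was the one near the internal starts.

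Cd24a (chromosome 10, gene 43578284 to 43584265, plus strand) ranked 95677 and 61679 in the 0 h pair, 58693 and 70823 in the 48 h pair, 57440 and 37408 in the 72 h pair, and 65753 and 73059 in the 96 h pair. By rank, only the 72 h libraries both lay above both controls. As percentiles of each list, the values were 24.5 and 41.4 in the 0 h pair and 50.2 and 49.2 in the 48 h pair. They were 59.1 and 75.8 in the 72 h pair and 54.6 and 42.7 in the 96 h pair, above both controls at each time. In 0 h replicate 1 the strongest interval was 1092 bp from the nearest TSS and belonged to another region than in the other libraries. At the region that all 8 lists share, the ranks were 115466 and 61679 in the 0 h pair and 57440 and 37408 in the 72 h pair, and the groups again did not overlap.

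Prom1 (chromosome 5, gene 43993620 to 44102032, minus strand) has 7 annotated TSSs. Its strongest promoter interval ranked 31068 and 36299 in the 0 h pair, 16677 and 30012 in the 48 h pair, 35020 and 26390 in the 72 h pair, and 29201 and 34887 in the 96 h pair. The 48 h libraries lay above both controls, but the values came from 2 regions. One has its strongest summit 613 bp downstream of a TSS and ranked 31068 and 57867 in the 0 h pair against 16677 and 54548 in the 48 h pair. The other, 1274 bp upstream, ranked 35363 and 36299 in the 0 h pair against 66173 and 30012 in the 48 h pair. Neither region taken alone separated the 48 h libraries from the controls.

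Counted over the 7 genes with a promoter interval, 2 (Sox4 and Prom1) had both 48 h libraries above both controls, against 16.3% of all promoters, and 1 (Spp1) had both below, against 26.3%. At 72 h 2 (Sox4 and Cd24a) ranked higher and 1 (Spp1) lower, against 16.2% and 28.2%. At 96 h 0 ranked higher and 0 lower, against 14.0% and 17.9%. By percentile within the list, 3, 3 and 1 ranked higher at 48, 72 and 96 h, against 19.3%, 26.5% and 21.3% of all promoters. Ranked lower by percentile were 1, 0 and 0, against 20.6%, 15.1% and 11.2%. A design of 2 against 2 libraries cannot give a two-sided permutation p under 0.333, so no single gene could pass a test of this kind, and with 7 genes a single gene more or less decides how a count compares with the background. With 1 library left out, fewer have to be separated and the counts rose over all promoters as well. Leaving out 0 h replicate 2, or 48 h replicate 2 instead, gave 4 of 7 higher at 48 h, against 25.4% and 30.4% of all promoters. Leaving out the first 0 h or the first 72 h library gave 5 of 7 higher at 72 h, against 28.4% and 32.3%, and at 96 h 4 of 7 ranked lower once 0 h replicate 1 was left out, against 34.6%.

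A linear model (limma) was fitted to −log2 rank over all promoters listed in every library, so that a gain of 1 means a rank 2 times closer to the top. The 5 genes in the fit passed that filter because all 8 libraries listed them. At an adjusted p under 0.05 limma called 6 of 13220 promoters at 48 h (0.0454%), 0 at 72 h (0%) and 1 at 96 h (0.00756%), with 1657 (12.5%), 1301 (9.84%) and 700 (5.30%) at an unadjusted p under 0.05. Of the 5 genes limma called 0 at each time, with 1 (Epcam at 48 h), 0 and 0 at an unadjusted p under 0.05, and limma on quantile-normalized fold enrichment likewise called 0. The median of all fitted promoters was shifted by −0.20 at 48 h, −0.24 at 72 h and −0.10 at 96 h, and the changes of single genes are read relative to it.

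For Epcam the gain at 48 h was 1.59 ± 0.78 (SE, 2 libraries against 2, limma adjusted p = 0.394), or 1.79 relative to the median promoter. At 72 h it was 1.03 ± 0.78 (limma adjusted p = 0.666) and at 96 h 0.99 ± 0.78 (limma adjusted p = 0.955). These values rested on 0 h replicate 2: without it the gain fell to 0.15 at 48 h and turned to −0.42 at 72 h and −0.46 at 96 h. On fold enrichment the 48 h gain was 0.37. The Sox4 gains were 0.53 ± 0.48 at 48 h, 0.66 ± 0.48 at 72 h and −0.49 ± 0.48 at 96 h (limma adjusted p = 0.680, 0.650 and 0.962), or 0.73, 0.90 and −0.40 relative to the median. Without the second library of 48 h and of 72 h the Sox4 gains were 0.30 and 0.40, and at 96 h the gain was −0.03 without replicate 2 and −0.95 without replicate 1. Cd24a was 0.97 above the median promoter at 72 h and Prom1 0.78 above it at 48 h (limma adjusted p = 0.540 and 0.640). The Cd24a gain of 0.73 dropped to 0.41 when 0 h replicate 1 was left out and to 0.42 when 72 h replicate 2 was. That of Prom1, 0.59, was 0.16 without 48 h replicate 1 and 0.07 on fold enrichment. Sox9 stayed within 0.12 of the median at each time. The 5 genes' median gain was 0.53, 0.66 and 0.07 at 48, 72 and 96 h, beside the −0.20, −0.24 and −0.10 of all fitted promoters.

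**Figure D2:**
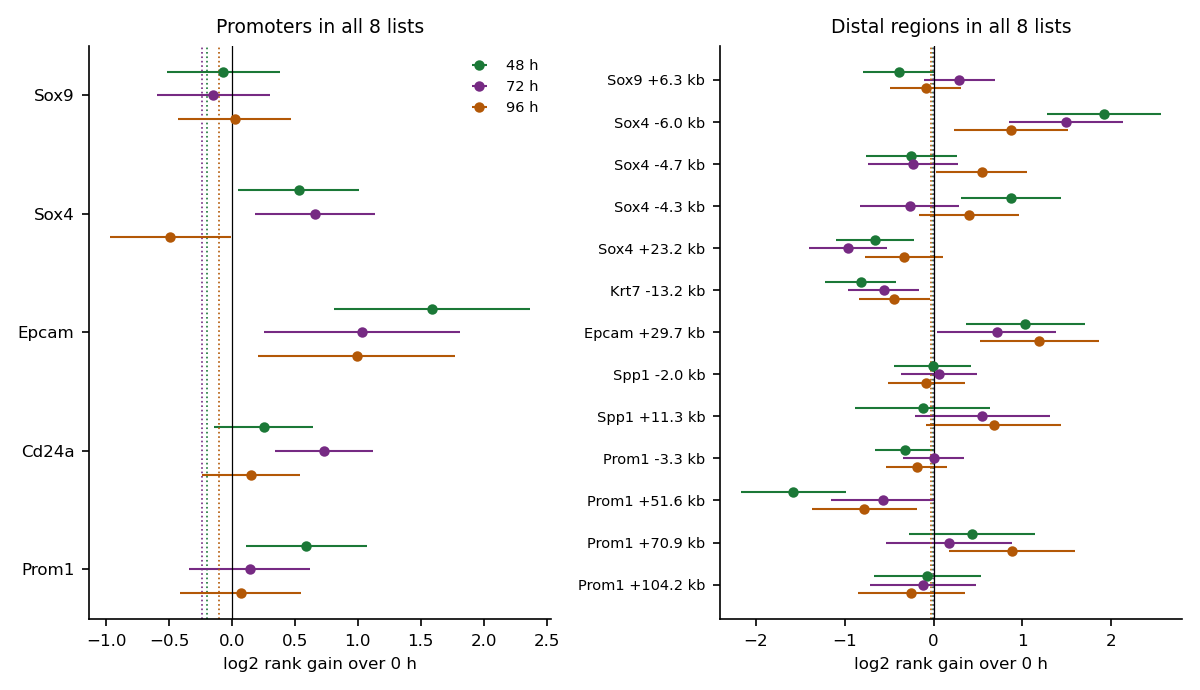
Gain in −log2 rank over 0 h (points, limma estimate; bars, SE) for the 5 promoters (left) and the 13 distal regions (right) present in all 8 lists, coloured by time after PHx. Dotted lines are the medians of all fitted promoters or regions. The Sox4 region 6014 bp upstream reaches the highest value at 48 h, 1.92, and the Prom1 intronic region 51555 bp into the gene the lowest, −1.58.

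The 8 windows held 104 merged regions, of which 13 were the genes' own promoters, 5 were promoters of neighbouring genes and 86 were distal. Of the 86 distal regions 53 (61.6%) were found in 1 list only and 13 (15.1%) in all 8, beside 53.3% and 15.3% of 219310 distal regions of all protein-coding genes. Per library, 22 to 39 of the 86 were listed and 10 to 12 were among the 50000 strongest intervals. The regions in all 8 lists were 4 each at Sox4 and Prom1, 2 at Spp1 and 1 each at Sox9, Krt7 and Epcam. Cd24a had none in all 8 lists, and the 5 distal regions of Krt19 were each in a single list at rank 92806 or worse. The neighbouring promoters belonged to Pkd2 near Spp1, Fgfbp1 near Prom1, and Krt87 and Krt88 near Krt7.

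**Figure D3:**
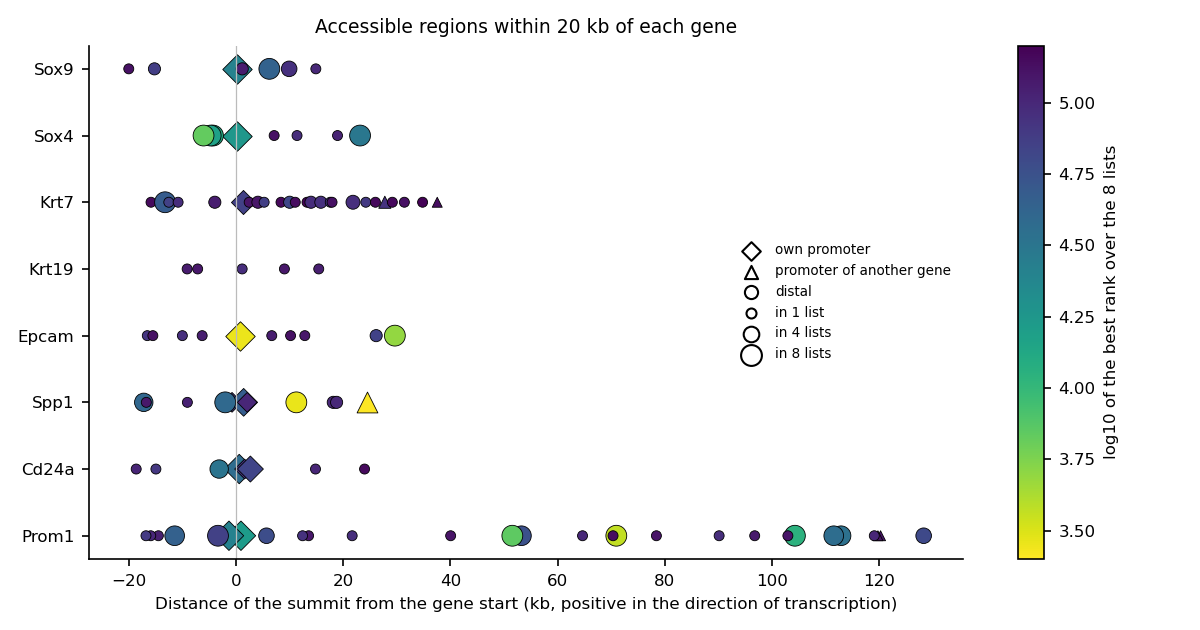
Accessible regions in the window of each gene (rows) by the distance of the strongest summit from the gene start (kb, positive in the direction of transcription). Symbol size gives the number of lists with the region, colour the best rank, and shape whether it is an own promoter, another gene's promoter or distal. Krt19 has 5 small symbols, each in 1 list, while Epcam and Spp1 each have a distal region past the gene's end that is among the strongest shown.

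The strongest distal region of the 8 genes lay past the end of Spp1 (chr5:104446104-104446598). It ranked 7149 and 3780 in the 0 h pair, 4044 and 7942 in the 48 h pair, 3317 and 3788 in the 72 h pair, and 2880 and 3673 in the 96 h pair, with a fold enrichment of up to 24.6. Every library thus ranked it above the gene's own promoter, the best rank of which was 47773. Both 96 h libraries lay above both controls by a small margin, with a limma gain of 0.68 ± 0.76 (adjusted p = 0.916).

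At Sox4 the region 6014 bp upstream (chr13:28959437-28960018, outside any protein-coding gene) had the largest difference from 0 h. It ranked 22944 and 41548 in the 0 h pair, 8500 and 7778 in the 48 h pair, 17780 and 6806 in the 72 h pair, and 27068 and 10616 in the 96 h pair. The 48 and 72 h libraries all ranked above both controls, and the 96 h libraries overlapped them. The limma gain was 1.92 ± 0.64 at 48 h (adjusted p = 0.247), 1.49 ± 0.64 at 72 h (adjusted p = 0.638) and 0.87 ± 0.64 at 96 h (adjusted p = 0.857), and it passed the threshold at no time. The neighbouring regions 4252 and 4682 bp upstream had limma gains of 0.87 ± 0.56 and −0.25 ± 0.51 at 48 h (adjusted p = 0.570 and 0.890). On the other side of the gene, the region 23167 bp from its start (chr13:28930321-28930827) ranked 30407 and 34655 in the 0 h pair, 48509 and 54130 in the 48 h pair, and 63716 and 62473 in the 72 h pair, below both controls each time, with limma gains of −0.66 ± 0.44 and −0.96 ± 0.44 (adjusted p = 0.581 and 0.653). In the 96 h pair it ranked 50496 and 33065 and overlapped the controls (limma gain −0.33 ± 0.44, adjusted p = 0.928).

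Prom1 carried 4 distal regions in all 8 lists, 3 of them intronic. The best ranked of them, 70939 bp into the gene (chr5:44030775-44031550), stood at 7130 and 17828 in the 0 h pair, 12635 and 5536 in the 48 h pair, 11548 and 8682 in the 72 h pair, and 10145 and 3696 in the 96 h pair, and the groups overlapped at every time. Its window held a FOXA match near the summit, a motif found in 7.22% of distal windows. The intronic region 51555 bp into the gene (chr5:44049924-44050691) ranked 14983 and 6984 in the 0 h pair, 23677 and 39492 in the 48 h pair, 14698 and 15620 in the 72 h pair, and 17746 and 17479 in the 96 h pair. Both 48 h and both 96 h libraries lay below both controls, with limma gains of −1.58 ± 0.59 (adjusted p = 0.305) and −0.78 ± 0.59 (adjusted p = 0.863).

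Upstream of Cd24a (chr10:43575058-43575330), the region ranked 32185 and 38322 in the 0 h pair and was therefore stronger than the Cd24a promoter in both control libraries. In the 48 h pair it was at 65434 and absent, in the 72 h pair at 71271 and 81680, and in the 96 h pair at 67671 and absent. It lay below both controls at all 3 times, with a mean gain of −1.12 at 72 h, where all 4 lists have the interval. It was not in the limma fit, which needs an interval in every list. A second region with this pattern, in an intron of Prom1 (chr5:44096191-44096424), was listed in both 0 h libraries and in 72 h replicate 1 and 96 h replicate 2 only.

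The best distal region of Epcam (chr17:87665320-87665891) ranked 13502 and 29784 in the 0 h pair, 6489 and 14844 in the 48 h pair, 13482 and 11202 in the 72 h pair, and 4916 and 15817 in the 96 h pair. Only the 72 h libraries both lay above the better control, one of them at 13482 against 13502. Its limma gains of 1.03, 0.71 and 1.19 (each ± 0.67) had adjusted p = 0.575, 0.860 and 0.814. The Krt7 region 13188 bp upstream (chr15:101397690-101398118) ranked 78448 and 48476 in the 0 h pair, 93790 and 126754 in the 48 h pair, 57643 and 143865 in the 72 h pair, and 56212 and 124182 in the 96 h pair, so that its 48 h libraries lay below the controls (limma gain −0.82 ± 0.40, adjusted p = 0.440). At Sox9 the region 6252 bp from the start (chr11:112788017-112788823) ranked between 43431 and 92855 and overlapped between groups at every time.

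**Figure D4:**
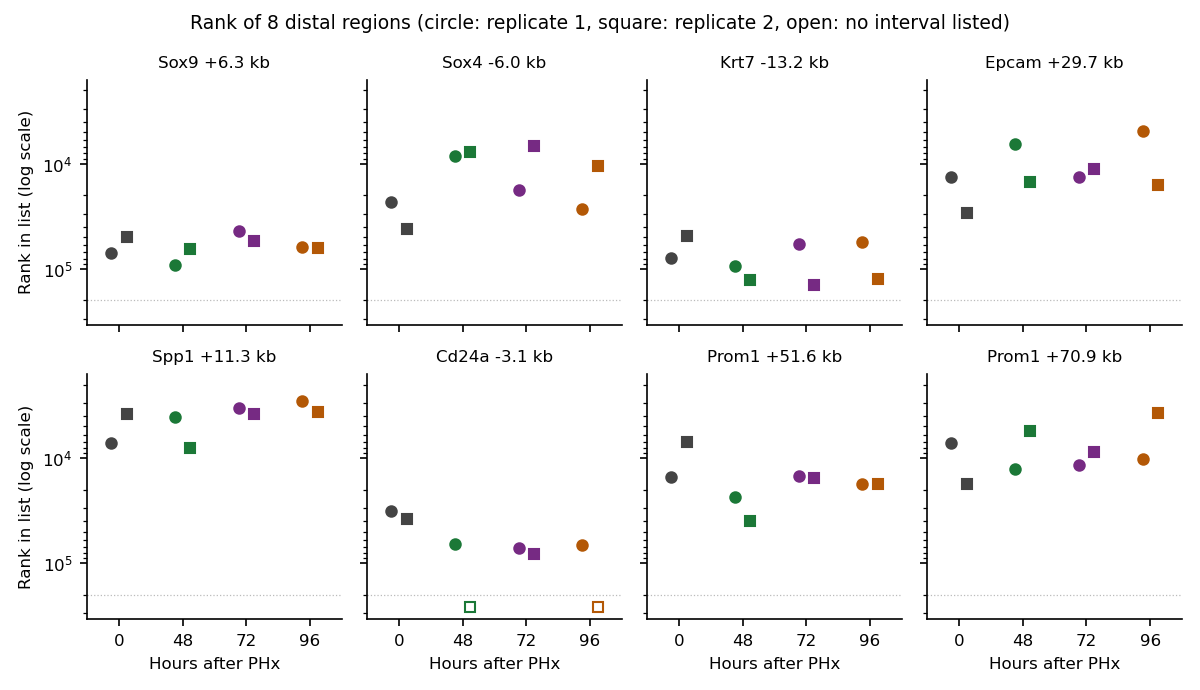
Rank of 8 distal regions (vertical axis, log scale, strongest at the top) against hours after PHx, 1 point per library (circles, replicate 1; squares, replicate 2; open symbols, no interval). The Sox4 region 6.0 kb upstream stands above both controls in all 48 and 72 h libraries, whereas the Cd24a region 3.1 kb upstream is below both controls, or absent, in all 6 libraries after PHx.

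Counted over all distal regions of the 8 genes, 1 of 46 (the Sox4 upstream region) had both 48 h libraries above both controls, against 8.73% of all distal regions, and 7 of 46 had both below, against 11.2%. The lower ones were 3 at Prom1 and 1 each at Spp1, Cd24a, Sox4 and Krt7. At 72 h 5 of 61 ranked higher (1 each at Prom1, Spp1, Sox4, Krt7 and Epcam), against 12.3%, and 3 of 61 lower (Prom1, Cd24a and Sox4), against 8.76%. At 96 h 1 of 50 ranked higher (Spp1), against 8.69%, and 4 of 50 lower (3 at Prom1 and 1 at Cd24a), against 9.34%. By percentile within the list, 2 of 46, 9 of 61 and 2 of 50 ranked higher at 48, 72 and 96 h, against 10.3%, 19.3% and 12.2%. Ranked lower by percentile were 7, 3 and 3, against 8.73%, 3.92% and 5.56%. An absent interval counts as below any listed one here, and 3 of the 7 regions lower at 48 h lacked an interval in at least 1 of the 4 lists. With 1 library left out, which of the directions was more frequent depended on the library, for the 8 genes and for all distal regions. At 48 h, 15 of 41 regions were higher and 9 lower without replicate 1 of that time (41.8% and 19.0% of all distal regions), and 10 of 37 each way without replicate 2 (34.4% and 22.1%). When a control was left out instead, 8 of 41 were higher and 14 lower without 0 h replicate 1 (15.9% and 29.5%), and 1 and 15 of 41 without replicate 2 (13.4% and 32.1%). At 72 h the counts were 22 higher and 7 lower of 47 and 23 and 4 of 48 without replicate 1 or 2 of that time, and 12 and 12 of 58 and 7 and 12 of 55 without replicate 1 or 2 of 0 h. At 96 h they were 17 and 5 of 43 and 14 and 7 of 39 without a 96 h library, and 11 and 13 of 46 and 2 and 11 of 46 without a control. Over all distal regions at these 2 times, 36.4% to 45.7% were higher and 16.4% to 21.3% lower without a library after PHx, and 13.9% to 21.8% were higher and 25.9% to 29.4% lower without a control. limma called 3 of 33584 distal regions at 48 h (0.00893%), 0 at 72 h and 0 at 96 h (0%), with 3808 (11.3%), 2482 (7.39%) and 2121 (6.32%) at an unadjusted p under 0.05. Of the 13 regions of the 8 genes limma called 0 at each time, with 3, 2 and 0 at an unadjusted p under 0.05, and also 0 on fold enrichment.

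The Spp1 region 17159 bp upstream (chr5:104417712-104418161) was on different sides of the controls at 48 and 72 h. It ranked 59820 and 100667 in the 0 h pair, was absent from both 48 h lists, and ranked 40331 and 52034 in the 72 h pair and 54580 and 68852 in the 96 h pair. It was thus below both controls at 48 h and above both at 72 h. Its window held an RBPJ match, a motif found in 6.38% of distal windows. The difference between the times was not tested.

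Other biliary genes were also split. Of 15 further cholangiocyte genes, 7 had a promoter interval in all 8 lists (Krt23, Bicc1 and Pkhd1 among them) and 1 in none (Tspan8). Over all protein-coding genes these shares were 60.3% and 25.1%. Per library, 9 to 12 of the 15 were listed. Of the 13 with an interval at 0 or 48 h, 2 ranked higher and 3 lower at 48 h, against 16.3% and 26.3% of all promoters. Of 14, 2 were higher and 4 lower at 72 h, against 16.2% and 28.2%, and of 14, 3 were higher and 3 lower at 96 h, against 14.0% and 17.9%. Genes of the Notch and YAP pathways, which drive biliary fate, were mostly accessible throughout. Of 14, 13 were listed in every library (among them Notch1, Notch2, Jag1, Hes1, Rbpj, Yap1 and Tead1) and 1 in none (Ankrd1), against the same 60.3% and 25.1%. The median rank of the 13 was 4552, stronger than that of Sox4, Sox9, Prom1 or Cd24a but not of Epcam (4154). The median of all promoters present in all lists was 11955. Jag2, one of the 13, was weak, at ranks 44428 to 109124. At 48 h 2 of the 13 ranked higher and 4 lower, at 72 h 4 and 3, and at 96 h 2 and 1, beside the same shares of all promoters. limma called 0 genes of either list, in fits of 7 and 13 promoters, at each time.

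Promoters of hepatocyte genes were counted in the same way. Of 12, both libraries lay below both controls for 8 at 48 h, for 10 at 72 h and for 6 at 96 h, against 26.3%, 28.2% and 17.9% of all promoters, although limma called 0 of the 8 fitted. Among the markers of other cells, 4 of the 7 stellate cell genes with an interval ranked higher at 48 h (Lhx2, Col1a1, Des and Reln, named after their values were seen), 0 of 7 at 72 h and 2 of 7 at 96 h, against 16.3%, 16.2% and 14.0% of all promoters. In endothelial genes the counts were 0 of 6, 0 of 4 and 1 of 6, and in Kupffer cell genes 0 of 2 at each time. The part of these shifts in the Sox4 and Prom1 values at 48 h was not tested.

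**Figure D5:**
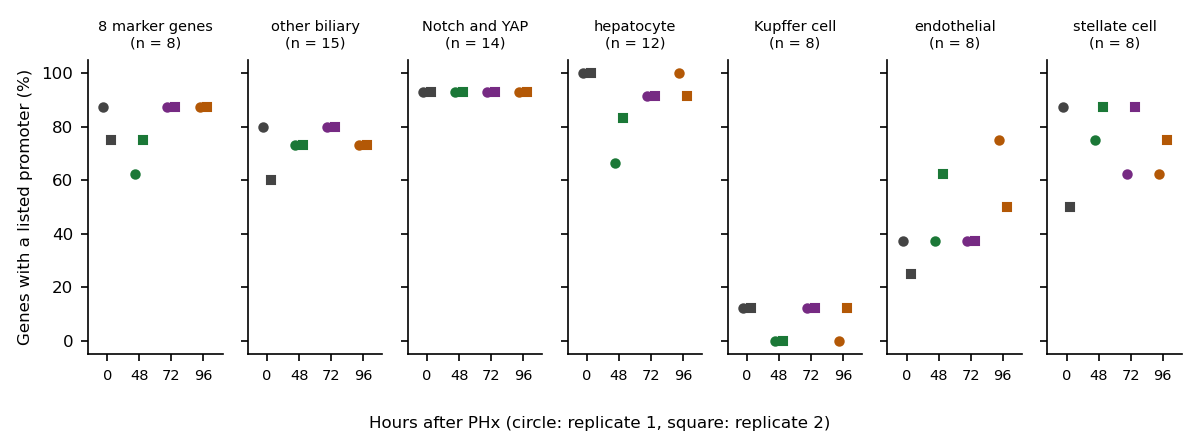
Share of the genes of each list with a promoter interval (vertical axis, percent) in each library against hours after PHx (circles, replicate 1; squares, replicate 2). The 8 marker genes lie between 5 and 7 genes listed, the Notch and YAP genes at 13 of 14 in all libraries, and the Kupffer cell genes at 0 or 1 of 8.

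Finally, the promoters with rank profiles most like the 5 listed throughout were searched among 13219 others by Euclidean distance in log2 rank over the 8 libraries. The closest were Atf1 for Sox9 (distance 0.38), Cd14 for Prom1 (0.52), Tesc for Cd24a (0.66), Ankrd29 for Sox4 (0.73) and Fbxo4 for Epcam (1.29). For Sox9 the second closest promoter was also at 0.38. None of the 5 was closest to another of the 8 genes, which says little because so few of the 13219 candidates were among the 8.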

How the data were processed

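Hepatocyte nuclei from 8 libraries (2 per time point, undamaged or 48, 72 or 96 h past PHx, grouped by the sample labels) had been profiled by bulk ATAC-Seq. Per the study's methods, the authors trimmed reads, aligned them to mm10 with Bowtie2, removed PCR duplicates and called peaks with MACS2 within the ENCODE pipeline, and versions are not given in the sources used here. One list was deposited per library. The deposited lists give, per peak, a score for display, a fold enrichment over local background (a ratio), a −log10 p and a −log10 q, the last 2 from the authors' peak caller. The score was not used. Ranking by −log10 p removes the depth of a library only in part, because deeper libraries reach higher significance at the same accessibility. The −log10 p at the 50000th interval ran from 8.05 (48 h replicate 1) to 15.2 (0 h replicate 1).

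Lines with the same interval were collapsed to the one with the highest −log10 p and ranked within the list. GENCODE M21 basic gave 41525 protein-coding TSSs, and 0 intervals ended past a chromosome end of GRCm38.p6. A promoter took the strongest interval overlapping the TSS ± 1 kb by at least 1 bp, and distal intervals of all libraries were merged into regions. limma (3.58.1, R 4.3.3) was fitted with trended variance to −log2 rank over all 8 libraries, without a replicate block, and p-values were adjusted by Benjamini-Hochberg over all fitted features. The scripts were tested on simulated data. The genes, gene lists and motifs were chosen with earlier results of these data known. Named distal regions were each gene's best-ranked one by median over 8 libraries, any region called, and per time the 2 with the largest mean log2 rank difference among those not overlapping between groups and listed in all 4 libraries. The Sox4, Prom1 and Spp1 regions outside this rule were named after their values were seen. Alternatives were fold enrichment, percentiles, a q threshold of 0.05, the 50000 strongest intervals, a 500 bp promoter window, 200 bp around summits, a 5 kb flank, absent intervals at the last rank, a replicate block and leaving out each library. A test on read counts, as in the study, needs values that peak lists do not hold. Python 3.11.15 was used elsewhere.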

Additional observations from a re-analysis of the deposited data

How the results depend on the processing

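limma called 0 promoters and 0 distal regions of the 8 genes under all 14 alternatives tried for each. Over all promoters and times it called 7, and 0 on fold enrichment, 17 with absent intervals at the last rank, 11 with a 500 bp window and 2 to 57 with 1 library left out (54 and 57 without 96 h replicates 1 and 2). Over all distal regions it called 3, and 1 on fold enrichment, 79 with absent intervals at the last rank, 1 at q under 0.05, 0 among the 50000 strongest and 0 to 5 with 1 library left out. Same-numbered libraries showed little joint deviation (correlations of replicate differences from −0.0861 to 0.116). This cannot settle whether the numbers pair libraries, since a shared batch with a small or varying effect would not show. The replicate block gave 4 promoter calls.

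Counts of the 8 genes' promoters ranked higher were 2 at 48 h (3 by percentile, 1 by fold enrichment, 1 with a 500 bp window, 2 to 4 with 1 library left out), 2 at 72 h (3 by percentile, 1 by fold enrichment, 1 among the 50000 strongest, 2 to 5) and 0 at 96 h (1 by percentile, 1 to 3). Counts ranked lower were 1 at 48 h (0 among the 50000 strongest, 1 to 2), 1 at 72 h (0 by percentile, 2 by fold enrichment, 0 among the 50000 strongest, 1 to 2) and 0 at 96 h (1 by fold enrichment, 0 to 4). By percentile, 19.3%, 26.5% and 21.3% of all promoters ranked higher at 48, 72 and 96 h, and 20.6%, 15.1% and 11.2% lower. With 1 library left out, 24.7% to 36.8% ranked higher and 30.9% to 44.1% lower over these times. For the other alternatives the share of all promoters is not given here, so these counts have no background.

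Distal regions ranked higher were 1 at 48 h (2 by percentile, 2 around summits, 0 with a 5 kb flank, 1 to 15 with 1 library left out), 5 at 72 h (9 by percentile, 2 among the 50000 strongest, 1 with a 5 kb flank, 7 to 23) and 1 at 96 h (2 by percentile, 0 by fold enrichment, 3 around summits, 0 with a 5 kb flank, 2 to 17). Regions ranked lower were 7 at 48 h (3 among the 50000 strongest, 4 with a 5 kb flank, 9 to 15), 3 at 72 h (4 to 12) and 4 at 96 h (2 among the 50000 strongest, 5 to 13). By percentile, 10.3%, 19.3% and 12.2% of all distal regions ranked higher at 48, 72 and 96 h, and 8.73%, 3.92% and 5.56% lower. With 1 library left out, fewer libraries have to be separated, and the shares of all distal regions are those given earlier. For the other alternatives the share of all distal regions is not given here, so these counts have no background.

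Gains that changed sign on fold enrichment were those of Prom1 (−0.03 at 72 h, −0.10 at 96 h) and Sox9 (0.00 at 96 h). With 1 library left out, Prom1 ran from −0.06 (without 72 h replicate 2) to 0.35 at 72 h and from −0.06 (without 96 h replicate 1) to 0.20 at 96 h, being −0.04 without 0 h replicate 2. Sox9 ran from −0.63 to 0.49 at 48 h, from −0.71 to 0.41 at 72 h and from −0.54 to 0.58 at 96 h, the lowest value each time without 0 h replicate 1 and the highest without 0 h replicate 2 (−0.28 at 96 h without 96 h replicate 2). Cd24a ran from −0.06 to 0.57 at 48 h and from −0.17 to 0.47 at 96 h, and Epcam from −0.42 to 2.48 at 72 h and from −0.46 to 2.44 at 96 h, with the negative values without 0 h replicate 1 (Cd24a) or 2 (Epcam). Apart from leaving out a library, which leaves fewer samples, the cause was not tested. Absence from a list means only a −log10 p under its threshold at an unknown depth.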
